A study of Rattus norvegicus with 79 samples.

Results

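Messenger RNA was compared in the CA1 field of the hippocampus between 3-month-old rats trained to swim to a visible platform and 3-month-old yoked rats that swam with no platform to find. Members were taken from the sample titles, which gave 4 visible platform arrays and 6 yoked arrays, 10 of the 79 arrays of the series. No probe set passed the threshold between the groups, so the genes below are given as values with their errors, and none is said to have changed. In the correlation with other arrays, 2 of the 4 visible platform arrays, those of animals 30 and 65, and none of the yoked arrays stood apart, and the main values are given with and without those arrays. By another measure, the disagreement between probe sets of a gene, 2 of the 4 visible platform and 3 of the 6 yoked arrays were over the limit used.

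CA1 pyramidal neurons carry the main output of the hippocampus, a structure needed for learning places. In the water maze, a visible platform can be reached by steering to a cue, whereas a hidden one has to be found from its place in the room; yoked swimming has the exertion and stress of the pool without an escape to learn. Neuronal activity is known to switch on immediate early genes, among them transcription factors such as Fos and Egr1 and synaptic effectors such as Arc, within minutes to hours.

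All rats were Fisher-344 males, housed as pairs, with 1 array per animal. The visible platform rats carried animal numbers 28, 29, 30 and 65 and the yoked rats 22, 23, 24, 58, 59 and 60. No genotype or drug differed between the groups, and all were killed 24 hours after their last trial, under pentobarbital. Punches of the CA1 cell layer were taken from preserved slices, and their RNA was amplified in 2 rounds before biotin labelling. The labels give neither the number of trials nor the rat to which each yoked rat was matched. The other young rats, 6 trained on a hidden platform and 3 cage controls, entered the fit only to estimate the spread. Among these, hidden platform rat 39 and cage rats 70 and 76 were also low in their correlation with other arrays. Fits described below as without rats 30 and 65 left out rats 39, 70 and 76 too. The errors and p-values of those fits therefore do not reflect the loss of rats 30 and 65 alone. The comparison asks how training with a visible escape differs from swimming alone. P-values set each difference against the spread between rats within all groups of the fit, and the small number of arrays limits the precision.

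The tissue label was checked against marker genes. Nrgn (neurogranin, a calmodulin-binding protein of forebrain neurons) lay between the 99.1 and 99.8 percentiles of signal on the 10 arrays. Hpca (hippocalcin, a calcium sensor of pyramidal neurons) lay between the 93.5 and 99.7 percentiles. Camk2a and Slc17a7, which pyramidal neurons express strongly, had 1 probe set each, both too dim to be tested, at or below the 52.6 and 37.1 percentiles. The punch also held Gad1, an enzyme of inhibitory neurons, at or above the 90.5 percentile and the choroid plexus gene Ttr at or above the 74.4 percentile.

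Arrays 30 and 65 differed from the other 8 in the order of their signals. Over all probe sets, array 30 had a median Spearman correlation of 0.715 with the other 78 arrays of the series and array 65 of 0.768, against 0.920 and 0.916 for arrays 28 and 29 and 0.858 to 0.935 for the yoked arrays. In the whole series 14 of 79 arrays lay under 0.85, none of them yoked and young. Arrays 28 and 29 correlated at 0.950 with each other and at 0.941 to 0.959 with yoked arrays 22 to 24. Array 30 correlated at 0.711 to 0.732 with the yoked arrays and at 0.669 with array 65, so that these 2 did not form a pair either.

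**Figure D1:**
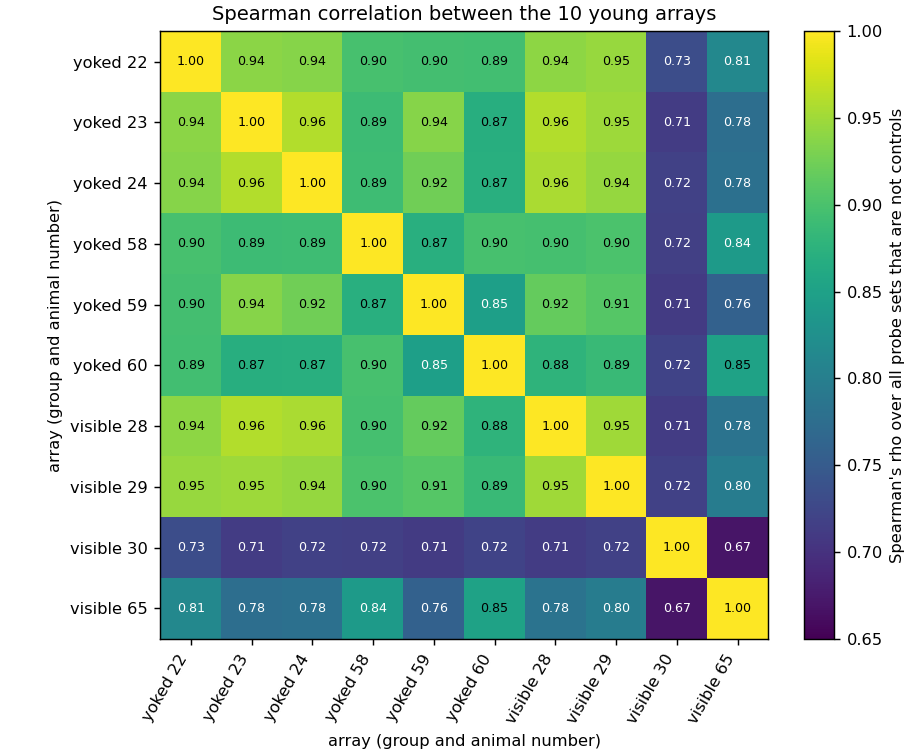
Spearman correlation over 8740 probe sets between each pair of the 10 arrays, with group and animal number on both axes and colour for the coefficient. The visible platform arrays 30 and 65 form dark bands, with coefficients of 0.71 to 0.73 and 0.76 to 0.85 against the yoked arrays, while arrays 28 and 29 lie among the yoked arrays.

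Some of the other quality values set both arrays 30 and 65 apart and others did not. The median signal was 220.6 on array 30 and 174.7 on array 65, against 117.6 to 157 on the other 8. The disagreement between both brightest probe sets of a gene, taken as the scaled median absolute difference of their deviations from the series median over 824 genes, was 1.37 log2 units on array 30 and 1.64 on array 65, against 0.549 and 0.539 on arrays 28 and 29 and 0.463 to 1.15 on the yoked arrays. It was over 0.75 on visible platform arrays 30 and 65 and on yoked arrays 22, 58 and 60. The mean log2 ratio of 3 pairs of 3′ to 5′ control probe sets, which is lower where more of the transcript's length was labelled, was 0.115 on array 65, 2.15 on array 30 and 1.5 to 2.78 on the other 8. From the yoked mean, 1865 of 5244 probe sets lay over 1 log2 unit away on array 30 and 1947 on array 65, against 347 on array 28 and 247 on array 29. The same count for each yoked array against the mean of the other yoked arrays was 458 to 1184, highest on arrays 59 (1111) and 60 (1184). Of 135 named genes, 38 had the opposite sign without the arrays of low correlation, 22 without the arrays of disagreement over 0.75, 19 with array quality weights and 2 when the ratio of 3′ to 5′ controls was a covariate.

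The difference, visible minus yoked, was fitted with limma on log2(signal + 15), a scale that understates differences of dim genes. Of 5244 probe sets, 0 passed a Benjamini-Hochberg adjusted p of 0.05, which is 0%. At an unadjusted p under 0.05 there were 74, or 1.41%, with 37 (0.706%) higher and 37 (0.706%) lower in the visible platform rats, where 262.2 would be expected if p-values were uniform. The smallest unadjusted p was 0.00292 and the smallest adjusted p 0.999. The median difference over probe sets was 0.03 log2 units. Without the arrays of low correlation, which left 2 visible platform rats and 6 yoked rats, the fit again called none (0%). An unadjusted p under 0.05 was found there for 114 probe sets (2.17%), and the smallest adjusted p was 0.539.

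These counts do not show that the groups were alike. The median standard error was 0.46 log2 units and the 95% interval reached a median of 0.95 to each side. An interval that lay wholly within 1 log2 unit of 0, a 2-fold difference, was found for 1240 probe sets (23.6%), and for the other probe sets a difference of that size lay inside the interval. The spread between rats was a median SD of 0.70 log2 units in the visible group and 0.53 in the yoked group. The direction of a difference also depended on the arrays: 54.8% of probe sets had the same sign with and without the arrays of low correlation. With all arrays the difference ran against the mean signal over probe sets (Spearman -0.333, a description, since probe sets share their arrays), so that dim genes tended to be higher in the visible platform rats. Without these arrays the coefficient was 0.00781.

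**Figure D2:**
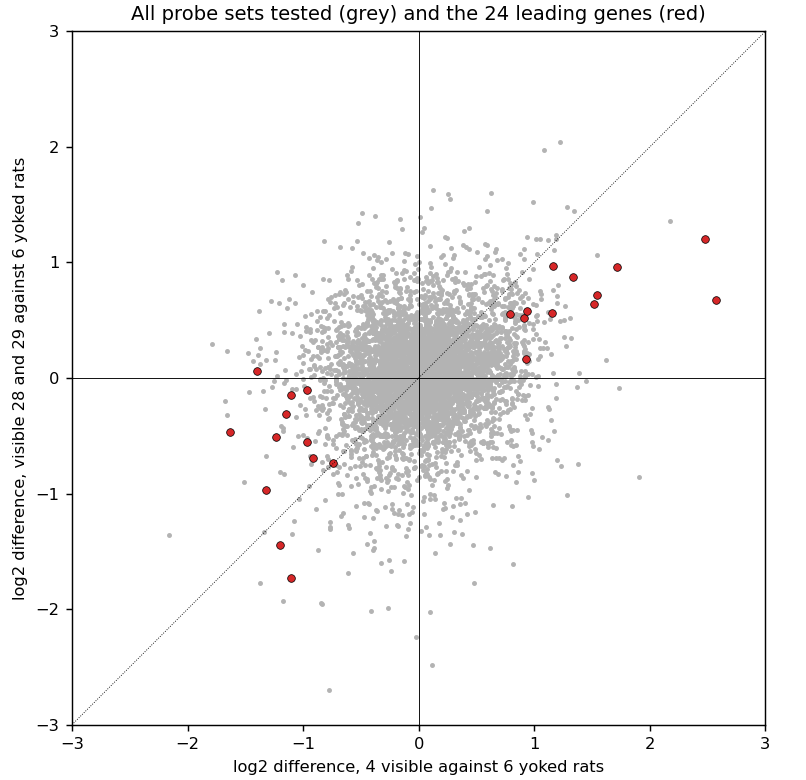
The log2 difference, visible minus yoked, of 5244 probe sets with all 4 visible platform arrays (horizontal axis) and with arrays 28 and 29 only (vertical axis), as grey points, with 24 leading genes in red and a dotted line of equal values. The cloud shows little slope, and 22 of the 24 red points lie nearer to 0 on the vertical axis than on the horizontal one.

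The genes of smallest unadjusted p, 12 higher and 12 lower in the visible platform rats, show what this comparison rests on. The highest difference belonged to Cyp2c13, a cytochrome P450 best known from male rat liver. Its signal was 60.1, 64, 1214 and 911 in visible platform rats 28, 29, 30 and 65, against 9.4 to 63.7 (median 34.7) in the yoked rats. Rats 30 and 65 lay far above every yoked rat, while rats 28 and 29 lay beside the highest yoked rat. The difference was 2.57 ± 0.77 (SE) log2 units, with an adjusted p of 0.999 in limma, and 0.68 ± 0.63 without rats 30 and 65. Its relative Cyp2c11 had 260, 215, 532 and 399 against 50.2 to 448 (median 95.8), a difference of 1.34 ± 0.60 with overlapping groups. Without rats 30 and 65 it was 0.87 ± 0.64.

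Dnm1l encodes the dynamin-related GTPase that divides mitochondria. It had signals of 220, 237, 824 and 545 in rats 28, 29, 30 and 65 against 56.6 to 247 (median 83.8) in the yoked rats. All 4 visible platform values were above the yoked mean and 2 were inside the yoked range. The difference was 1.71 ± 0.54 with all rats and 0.96 ± 0.59 without rats 30 and 65.

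Kctd13, an adaptor of the cullin 3 ubiquitin ligase, had 1 array far above the rest. Its signal was 5435, 7539 and 7126 in rats 28, 29 and 65 but 199178 in rat 30, against 1100 to 19047 (median 2250) in the yoked rats. All 4 visible platform rats lay above the yoked mean. The difference was 2.48 ± 0.86 log2 units on this probe set, 1.25 ± 0.72 without rat 30 and 1.20 ± 0.78 without rats 30 and 65, whereas the other 2 probe sets of Kctd13 gave -0.20 ± 0.42 and -0.66 ± 0.44.

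Myc, a growth-related transcription factor and itself an immediate early gene, had signals of 180, 157, 460 and 567 against 98.8 to 208 (median 154). Rats 28 and 29 lay within the yoked range and rats 30 and 65 above it. The difference was 0.92 ± 0.40, and 0.16 ± 0.38 without rats 30 and 65. Slc13a2, a sodium-coupled dicarboxylate transporter, differed from this pattern, since rat 29 (376) lay beside rat 30 (405), with rat 28 at 102 and rat 65 at 170 against 68.6 to 132 in the yoked rats. Its difference was 1.16 ± 0.46 with all rats and 0.97 ± 0.47 without rats 30 and 65.

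The other 6 genes on the higher side were B3gat1 (the glucuronyltransferase that makes the HNK-1 epitope), Vwa8, Nkx2-5 (a homeobox factor of the heart), Atic (purine synthesis), Aanat (melatonin synthesis) and Atp2a3 (a calcium pump of the endoplasmic reticulum). Their differences ran from 0.79 ± 0.36 for Atp2a3 to 1.55 ± 0.57 for B3gat1, and from 0.52 to 0.72 without rats 30 and 65. In each of them rat 30 had the highest value of the visible platform group, and each overlapped the yoked range. The other probe set of Atic gave -0.02 ± 0.55.

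Among the genes on the lower side, Rps24, a protein of the small ribosomal subunit, had signals of 280, 601, 100.4 and 47.7 in rats 28, 29, 30 and 65 against 310 to 1492 (median 497) in the yoked rats. Rat 29 lay inside the yoked range, and rats 30 and 65 far below it. The difference was -1.63 ± 0.56, and -0.47 ± 0.59 without rats 30 and 65.

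Mrpl50, of the mitochondrial ribosome, separated the arrays most plainly. Rats 28 and 29 had 337 and 354, inside a narrow yoked range of 288 to 392 (median 326), whereas rats 30 and 65 had 30.4 and 35.5. The difference of -1.40 ± 0.49 became 0.06 ± 0.26 without the arrays of low correlation, the only one of the 24 genes whose sign turned in that fit. Slc8a1, the sodium-calcium exchanger of the plasma membrane, had 693, 1673, 291 and 256 against 770 to 1944 (median 1086). Its difference was -1.11 ± 0.47 with all rats and -0.15 ± 0.41 without rats 30 and 65, and its other 2 probe sets gave 0.47 ± 0.49 and 0.56 ± 0.38.

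A few genes were lower in rats 28 and 29 as well. Mvp, the major vault protein, had 27.7, 24.3, 39.5 and 46 in rats 28, 29, 30 and 65 against 24.2 to 154 (median 116) in the yoked rats. One yoked rat, number 58, was as low as the visible platform rats, and the other yoked rats lay above them. The difference was -1.20 ± 0.47 with all rats and -1.45 ± 0.50 without rats 30 and 65. Dpyd, the first enzyme of pyrimidine breakdown, had 63, 14.6, 69.6 and 141 against 68.5 to 306 (median 172), with differences of -1.11 ± 0.47 and -1.73 ± 0.51. Hspb6, a small heat shock protein, had 174, 132, 98.1 and 230 against 190 to 346 (median 263), and its difference was -0.74 in both fits, while its other probe set gave -0.36 ± 0.44.

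Elp4, a subunit of the Elongator complex, was the one leading gene whose groups did not overlap. It had 229, 169, 21.6 and 150 against 234 to 436 (median 258), a difference of -1.23 ± 0.50, and -0.51 ± 0.38 without rats 30 and 65. Usp40 and Trim3 (ubiquitin pathway), Phf7, Gpt (alanine aminotransferase) and Rbm10 (an RNA-binding splicing regulator) had differences of -0.91 to -1.32, and of -0.11 to -0.97 without those rats, with overlapping groups.

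**Figure D3:**
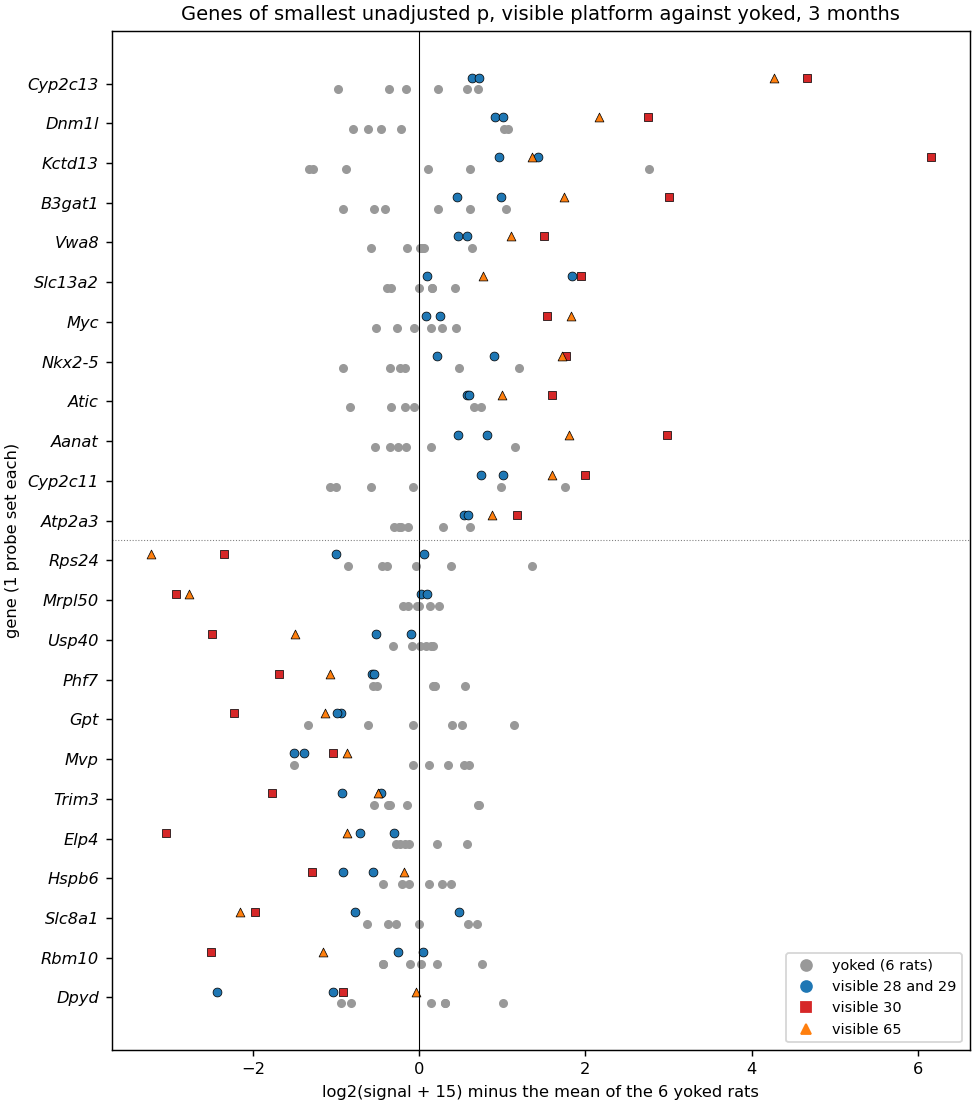
The 24 genes of smallest unadjusted p, each rat's log2(signal + 15) minus the mean of the 6 yoked rats; grey circles are yoked rats, blue circles visible platform rats 28 and 29, red squares rat 30 and orange triangles rat 65. The red squares or orange triangles mark the extreme of the visible platform group in 22 of the 24 genes.

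Over the 24 leading genes, the visible platform value farthest from the yoked mean was that of rat 30 in 19 genes, of rat 65 in 3 and of rat 28 or 29 in 2. All 4 visible platform rats lay on one side of the yoked mean in 20 of the 24. Without the arrays of low correlation, 23 kept their sign, 22 were smaller in size and 3 (Mvp, Hspb6 and Dpyd) had an unadjusted p under 0.05. The leading genes had 7 other probe sets of the same gene among those tested, and 2 of these had the sign of the leading one. Since the genes were chosen by this same comparison, these counts are a description.

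The groups did not overlap for 11 of 5244 probe sets (0.21%), with the visible platform rats higher in 6 (0.114%) and lower in 5 (0.0953%). Over 3233 genes with 1 probe set each there were 7 (0.217%), 4 higher and 3 lower, which were singled out after their values had been seen. Besides Elp4 they were Il1a, Tpm3, Kng2, Asah1, Ceacam4 and Gabrr1. Il1a, the cytokine interleukin 1 alpha, had 123, 71.8, 68.5 and 87.7 in the visible platform rats against 136 to 176 (median 163), a difference of -0.79 ± 0.37, and -0.67 ± 0.43 without rats 30 and 65. Rats 30 and 65 did not stand out for this gene.

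Tpm3, a tropomyosin of the actin cytoskeleton, had 1914, 2017, 2141 and 1966 against 2213 to 3102 (median 2279). The visible platform rats were close together just under the yoked range, and the difference was small, at -0.26 ± 0.32. Other probe sets of Tpm3 gave 1.12 ± 0.77, -0.23 ± 0.38 and -0.18 ± 0.50. Ceacam4, a cell adhesion molecule, had 172, 154, 189 and 131 against 58 to 130 (median 73.5), with differences of 0.90 ± 0.57 with all rats and 0.92 ± 0.39 without rats 30 and 65. Gabrr1, a GABA receptor subunit typical of the retina, had 376, 359, 358 and 729 against 204 to 336 (median 272). Rat 65 was the highest, and the difference was 0.67 ± 0.42. Kng2 (a kininogen) and Asah1 (acid ceramidase) had differences of 1.16 ± 0.74 and 1.02 ± 0.52. These were 0.96 ± 0.62 and 0.49 ± 0.49 without rats 30 and 65. None of the 7 had an adjusted p under 0.05 in limma.

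A further group stood out in the fit without the arrays of low correlation, again chosen by that fit and so described only. Gad2, which makes GABA in inhibitory terminals, had 55.3 and 21.5 in rats 28 and 29, 194 and 229 in rats 30 and 65, and 103 to 238 (median 129) in the yoked rats. Rats 28 and 29 were below every yoked rat, and rats 30 and 65 were in the upper part of the yoked range. The difference was -0.61 ± 0.49 with all rats and -1.69 ± 0.44 without rats 30 and 65. Gad1, the companion enzyme, differed by -0.08 ± 0.50 and -0.20 in the same fits.

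Wfdc1, a secreted protease inhibitor, had 24.8, 38.8 and 30.4 in rats 28, 29 and 30, below the yoked range of 85.6 to 212 (median 175), and 367 in rat 65, above it. The difference was -1.17 ± 0.60 with all rats and -1.93 ± 0.49 without rats 30 and 65. Grid1 (a glutamate receptor of the delta class), Cnn3 (an actin-binding calponin) and Srgn (the proteoglycan serglycin) had differences of -0.33 ± 0.60, -0.38 ± 0.48 and 0.25 ± 0.44 with all rats, and of -1.60, -1.47 and -0.95 without.

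Immediate early genes were measured 1 day after the last swim. Of 8 well-known activity genes, singled out after values had been seen, 0 passed the threshold in limma, 5 were higher in the visible platform rats and all 8 overlapped the yoked range. Of all 3233 genes, 0 passed, 1676 were higher and 7 (0.217%) did not overlap, so these counts do not set the activity genes apart. Fos, part of the AP-1 transcription factor, had 889, 704, 587 and 2228 in rats 28, 29, 30 and 65 against 768 to 1298 (median 902). Rat 65 was above the yoked range and rats 29 and 30 below it. The difference was 0.01 ± 0.38, with a 95% interval of -0.78 to 0.81.

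Egr1, a zinc finger factor induced by synaptic activity, had 15227, 24202, 49214 and 61203 against 15441 to 39197 (median 23759). Rats 30 and 65 were above every yoked rat and rats 28 and 29 were not. The difference was 0.47 ± 0.42 (interval -0.40 to 1.34) with all rats and -0.29 ± 0.34 without rats 30 and 65. Its other 3 probe sets gave -0.12 ± 0.57, 0.26 ± 0.51 and 0.08 ± 0.49. Egr2, of the same family, followed the same order, with 152, 285, 347 and 514 against 95.7 to 385 (median 269) and a difference of 0.30 ± 0.45. This became -0.19 ± 0.47 without rats 30 and 65.

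Arc, which acts at synapses in the removal of AMPA receptors, had 1384, 2379, 1604 and 1815 against 1572 to 2530 (median 1993). Rats 29, 30 and 65 lay inside the yoked range and rat 28 just below it. The difference was -0.16 ± 0.34, with an interval of -0.87 to 0.54. The hidden platform rats of the same age had Arc signals of 1921 to 4722 (median 3431), given here without a test. Ptgs2, the inducible cyclooxygenase, had 291, 215, 120 and 200.2 against 88.8 to 339 (median 222) and a difference of -0.02 ± 0.41 (interval -0.86 to 0.82).

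Homer1, a scaffold of metabotropic glutamate receptors, had 4225, 7865, 3494 and 20993 against 3990 to 8886 (median 5280). Rat 65 alone was above the yoked range. The difference was 0.34 ± 0.51, and its other 5 probe sets ran from -0.65 ± 0.40 to 0.81 ± 0.58. Junb (an AP-1 partner) and Nr4a1 (an orphan nuclear receptor) differed by 0.10 ± 0.34 and -0.26 ± 0.38. The intervals of Fos, Junb, Arc and Ptgs2 lay within 1 log2 unit of 0, so a 2-fold difference of these 4 probe sets was outside the interval; those of Egr1, Egr2, Nr4a1 and Homer1 did not. The other probe sets of Fos (0.08 ± 0.54), Junb (-0.26 ± 0.54) and Ptgs2 (0.54 ± 0.55) had wider intervals, of -1.03 to 1.19, -1.37 to 0.86 and -0.60 to 1.68, which reached past 1 log2 unit. That of Junb was -1.58 without rats 30 and 65.

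**Figure D4:**
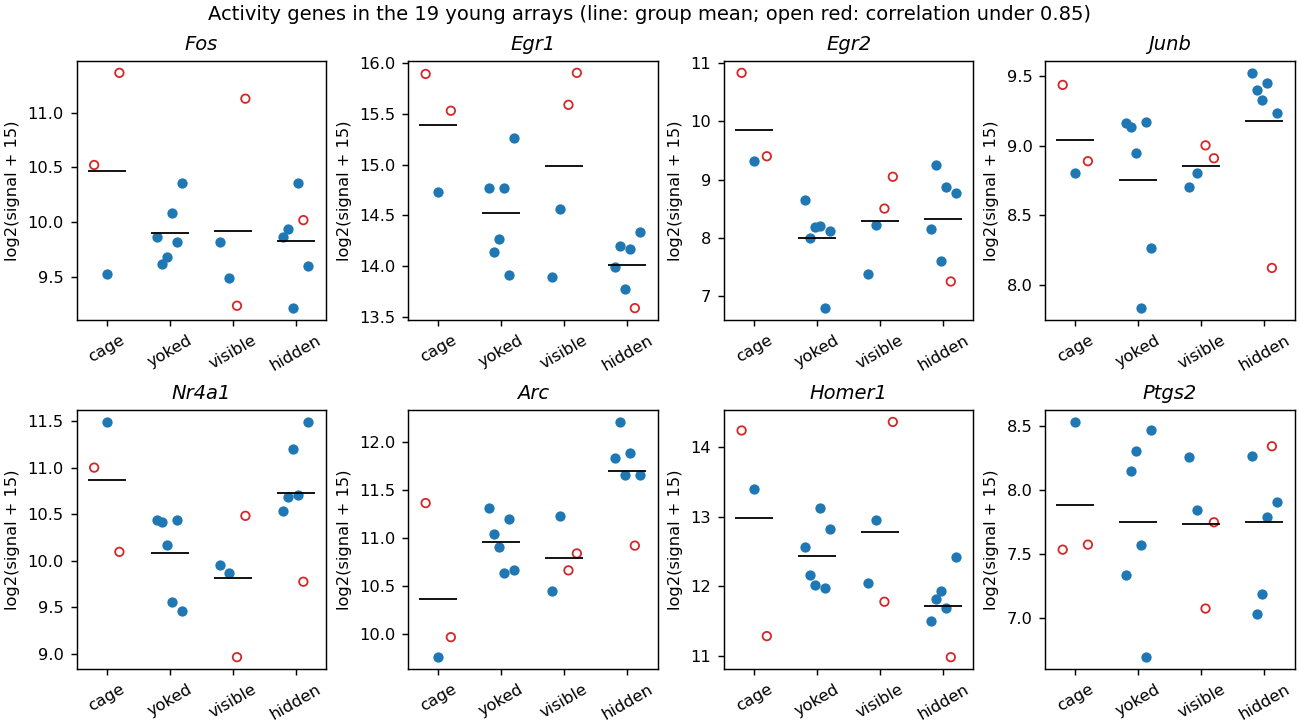
Log2(signal + 15) of 8 activity genes in the 19 young rats by group; each point is a rat, the line is the group mean and open red points are arrays with a median correlation under 0.85. For each gene the visible platform rats overlap the yoked rats, and in Egr1 the 2 highest visible platform points are the open ones.

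Gene lists were used to look at pathways and cell types, with 1 probe set per gene. Over 32 lists with at least 5 measured genes, which hold 643 genes, 0 members passed the threshold, and 10 (1.56%) had an unadjusted p under 0.05, against 42 of all 3233 genes (1.3%). For the counts of higher members below, 1676 of all 3233 genes were higher with all arrays and 1755 without the arrays of low correlation. List medians ran from -0.29 to 0.53 log2 units, beside 0.02 over all genes. Without the arrays of low correlation they ran from -0.29 to 0.37 beside 0.03, and the medians of 15 of the 32 lists changed sign.

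Immediate early transcription factors had 11 of 16 measured members higher and 5 lower, with a median of 0.10, and 4 of 16 higher with a median of -0.18 without rats 30 and 65. Besides Myc, the members of smallest p were Nr4a3 (an orphan nuclear receptor), at -0.76 ± 0.52, and Klf4 (a zinc finger factor), at 0.62 ± 0.46. Both changed sign without rats 30 and 65, to 0.12 ± 0.48 and -0.09 ± 0.44. The other probe set of Nr4a3 gave 0.13 ± 0.44 with all rats. Effector immediate early genes had 7 of 19 higher with a median of -0.12, and 14 of 19 higher with a median of 0.20 without those rats. Of these, Btg1 (an antiproliferative factor) had 476, 650, 60.5 and 569 against 516 to 1033 (median 664), with rat 30 far below the rest and a difference of -1.06 ± 0.48. That difference was -0.34 ± 0.35 without rats 30 and 65. Bdnf, the neurotrophin of activity-dependent plasticity, had 413, 345, 849 and 490 against 204 to 1185 (median 250), a difference of 0.59 ± 0.43, and its other 3 probe sets gave -0.40 ± 0.51, 0.19 ± 0.66 and 0.12 ± 0.42.

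Neurotrophins, growth factors and their receptors were higher in 26 of 35 members, with a median of 0.32, and in 27 of 35 with a median of 0.16 without rats 30 and 65. Ngfr, the p75 neurotrophin receptor, lay on the other side, with 352, 842, 306 and 714 against 677 to 1499 (median 904) and a difference of -0.84 ± 0.40. Igf1r (the receptor of insulin-like growth factor 1) and Fgfr2 (a fibroblast growth factor receptor) differed by 0.69 ± 0.42 and 0.79 ± 0.52. Without rats 30 and 65 they differed by 0.25 ± 0.49 and 0.12 ± 0.49. Rat 30 was above the yoked range for both, and rat 65 for Fgfr2. Other probe sets gave -0.15 ± 0.38 for Ngfr, -0.11 ± 0.48 for Igf1r and 0.67 ± 0.58 for Fgfr2.

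Receptors and channels of the synapse had members on both sides of 0. Ionotropic glutamate receptors had 5 of 13 higher and a median of -0.09, which was -0.29 without rats 30 and 65. Within them Grik2, a kainate receptor subunit, had 161, 156, 716 and 653 against 79.4 to 248 (median 175), so that rats 30 and 65 lay above the yoked range and rats 28 and 29 inside it. Its difference was 1.01 ± 0.48, and 0.01 ± 0.40 without rats 30 and 65. The same pattern of arrays held for Grin2a, an NMDA receptor subunit, at 0.51 ± 0.36 and 0.00 ± 0.32.

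Monoamine and acetylcholine receptors were higher in 22 of 29 members (median 0.21, and 0.07 without rats 30 and 65). Htr7, a serotonin receptor, had 234, 140, 592 and 62.1 against 7.7 to 173 (median 92.4), with rats 28 and 30 above the yoked range and a difference of 1.17 ± 0.57. Voltage-gated ion channels had 16 of 30 higher (median 0.06), and 14 of 30 (median -0.03) without those rats. Cacna1a, the pore of P/Q-type calcium channels, had 1026, 577, 72.7 and 223 against 560 to 1063 (median 851), and its difference of -1.25 ± 0.54 was -0.03 ± 0.47 without rats 30 and 65. Calcium sensors and buffers, of which Slc8a1 was counted as one, had 4 of 19 higher and a median of -0.15, and 9 of 19 with -0.08 without rats 30 and 65. GABA and glycine receptors had 7 of 13 higher in both fits, with medians of 0.06 and 0.17. Synaptic vesicle genes had 11 of 27 higher (median -0.10) with all rats and 19 of 27 (median 0.09) without rats 30 and 65.

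In signalling, Creb1, the transcription factor of cyclic AMP responses, had 69.2, 97.5, 433 and 339 against 51.9 to 117 (median 82.4). Rats 28 and 29 were inside the yoked range and rats 30 and 65 far above it. Its difference was 1.03 ± 0.50 with all rats and 0.01 ± 0.37 without rats 30 and 65. The list of cyclic nucleotide and MAP kinase genes had 13 of 28 higher and a median of -0.01, and 19 of 28 with 0.04 without those rats. Corticosteroid receptors and response genes, a list of interest where both groups swam, had 8 of 12 higher in both fits, with medians of 0.07 and 0.05.

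Proteasome and ubiquitin genes had 7 of 28 higher (median -0.15) with all rats and 18 of 28 (median 0.16) without rats 30 and 65. Oxidative phosphorylation subunits had 14 of 41 higher (median -0.12), and 15 of 41 (median -0.11) without those rats. Cytosolic ribosomal protein genes had 17 of 36 higher (median -0.08), and 14 of 36 (median -0.14) without those rats, with members far apart on rats 30 and 65: Rpl30 had 42.8, 31, 1099 and 1368 against 30.3 to 250 (median 92.8), opposite to Rps24 on the same arrays.

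**Figure D5:**
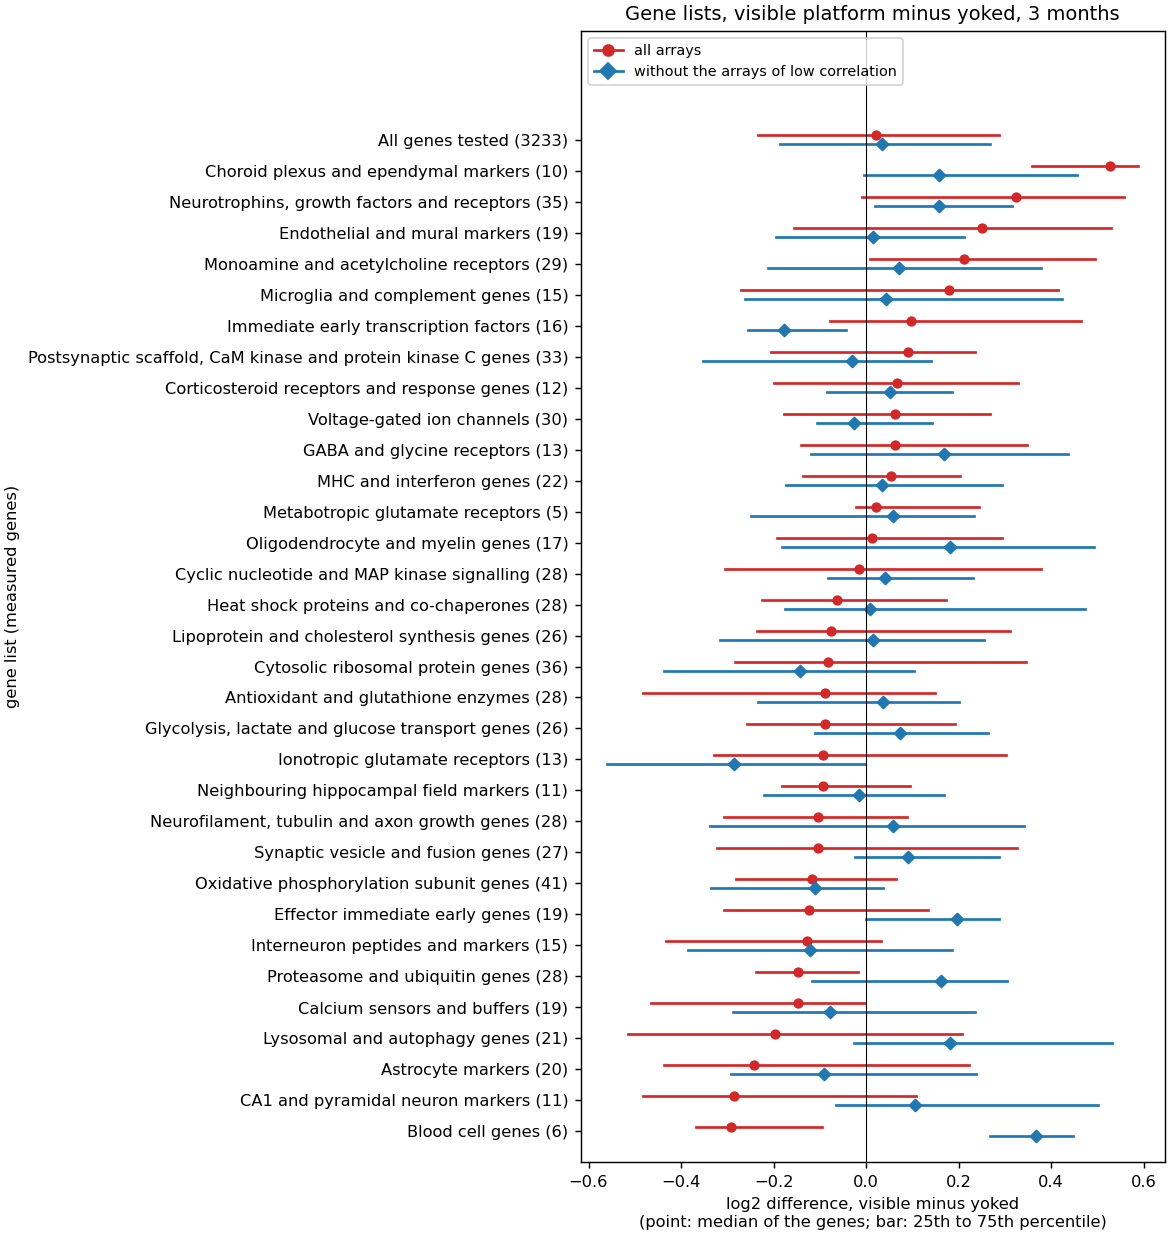
Median (point) and 25th to 75th percentile (bar) of the log2 difference, visible minus yoked, over the measured genes of each list (number in brackets), with all arrays in red and without the arrays of low correlation in blue. Choroid plexus markers have the highest red median (0.53) and blood cell genes the lowest (-0.29), and 15 lists have red and blue medians on opposite sides of 0.

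Cell type markers showed the makeup of the punches; in bulk tissue, fewer cells of a type and less RNA per cell cannot be told apart. Choroid plexus and ependymal markers were higher in 9 of 10 members (median 0.53, and 0.16 without rats 30 and 65), and 0 of 10 passed the threshold. Their summed signal, which the brightest members dominate, was 26283, 31622, 38907 and 101247 in rats 28, 29, 30 and 65 against 19239 to 86535 (median 27286) in the yoked rats. Rat 65 and yoked rat 60 were the high ones. Of its members, Prlr (the prolactin receptor) differed by 0.71 ± 0.49 and Igf2 (insulin-like growth factor 2) by 0.54 ± 0.43, and by -0.01 and 0.13 without rats 30 and 65. The other 2 probe sets of Igf2 gave 0.06 ± 0.53 and -0.56 ± 0.41 with all rats. Ttr, the thyroid hormone carrier made by the choroid plexus, differed by 0.59 ± 0.96, and by 1.44 ± 0.64 without rats 30 and 65. On the probe set used to check the tissue, Ttr reached at most 5198 in the visible platform rats, a small part of the sum of 101247 in rat 65. That sum therefore does not stand for Ttr.

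Endothelial and mural markers had 12 of 19 members higher with a median of 0.25, and 0.02 without rats 30 and 65. Their summed signal was 24856 in rat 65, above the yoked range of 6834 to 14194, and 7679 to 8732 in the other visible platform rats. Acta2, the smooth muscle actin, had 127, 148, 348 and 1077 against 88.4 to 225 (median 126), a difference of 0.96 ± 0.48, and -0.06 ± 0.37 without rats 30 and 65. Whether the punch of rat 65 held more vessel or choroid plexus tissue, and whether this entered other differences, was not tested.

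Blood cell genes had 1 of 6 higher with a median of -0.29, and 6 of 6 higher with a median of 0.37 without rats 30 and 65. Hbb-b1, whose sequence is shared in part with other globins, had 1272, 771, 960 and 117 against 423 to 1322 (median 760), with rat 65 below the yoked range. CA1 and pyramidal neuron markers had 4 of 11 higher (median -0.29, and 0.10 without rats 30 and 65). Their summed signal was 76050, 89696, 116340 and 114162 in rats 28, 29, 30 and 65 against 75026 to 100740 in the yoked rats, so that rats 30 and 65 lay above the yoked range. Much of these 2 sums was Egr1, an activity gene also on this list, with 49214 and 61203 in rats 30 and 65. In rats 28 and 29 it had 15227 and 24202. Sums without Egr1 were not taken, so the higher sums do not stand for the list as a whole. Members went both ways on arrays 30 and 65. Ppp3ca, the catalytic subunit of calcineurin, had 4921, 5552, 15739 and 9014 against 3657 to 7687 (median 4548), with differences of 0.68 ± 0.38 and 0.08 ± 0.33 with and without rats 30 and 65. Itpka, a kinase of dendritic spines, had 4378, 3915, 2309 and 65.8 against 1059 to 6007 (median 4337), so that its difference of -1.37 ± 0.94 came with rat 65 far below the rest, and was -0.02 ± 0.77 without it.

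Interneuron markers had 4 of 15 higher (median -0.13), and 7 of 15 (median -0.12) without rats 30 and 65. Their summed signal was 19553, 18280, 11985 and 30595 in rats 28, 29, 30 and 65 against 19247 to 23024 in the yoked rats. Rat 65 was thus above the yoked range and rats 29 and 30 below it. Npy, neuropeptide Y, had 957, 840, 25.2 and 413 against 470 to 1223 (median 794), with rat 30 far below and a difference of -1.25 ± 0.62, which was 0.15 ± 0.33 without rats 30 and 65. Astrocyte markers had 8 of 20 higher (median -0.24), oligodendrocyte genes 9 of 17 (0.01) and microglia and complement genes 10 of 15 (0.18). Without rats 30 and 65 these were 9 of 20 (-0.09), 10 of 17 (0.18) and 9 of 15 (0.04). The summed astrocyte signal was 158760 in rat 30, above the yoked range of 81935 to 133083, and 81049 in rat 28, just below it. Rat 30 lay below the yoked range in the oligodendrocyte sum (17923 against 18979 to 31297). The same held for its microglia and complement sum (7234 against 8309 to 11359). Rat 65 lay inside the yoked range in these sums. P2ry12, a receptor of resting microglia, had 239, 501, 478 and 3118 against 244 to 1340 (median 310), again with rat 65 alone above the yoked range. Mbp, a main protein of myelin, had 2084, 3124, 471 and 75.8 against 164 to 6447 (median 2075), so that rat 65 lay below the yoked range and the other 3 inside it.

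The same comparison at 24 months used 8 visible platform and 8 yoked rats, of which 4 and 1 arrays were of low correlation. No probe set passed in it by limma (0%), while 224 (4.27%) reached an unadjusted p under 0.05. Whether the difference between visible platform and yoked rats itself differed between ages was tested as an interaction over 63 arrays. No probe set passed (0%), and 90 (1.72%) had an unadjusted p under 0.05. The median standard error of this difference of differences was 0.59 log2 units. Of the 24 leading genes at 3 months, 17 had the same sign at 24 months, a description, since genes share their arrays.

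The interaction genes of smallest p were Clpb, Gdi2, Npy, P2rx4, Gfer and Gtdc1. Clpb, a mitochondrial protein disaggregase, had 135, 95.1, 26 and 84.4 in the young visible platform rats against 53.3 to 443 (median 199) in the young yoked rats. In aged rats it was 94.5 to 376 (median 335) against 86 to 226 (median 172). The difference was -1.0 ± 0.50 in young rats and 0.80 ± 0.32 in aged ones, and the interaction -1.80 ± 0.52 had an unadjusted p of 0.000878 that limma's adjustment over all probe sets did not let pass (1.00).

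Gdi2, which keeps Rab GTPases in the cytosol, had 189, 162, 578 and 146 against 77.4 to 167 (median 107) in young rats, and 28.2 to 144 (median 72.4) against 42.3 to 323 (median 164) in aged rats. The visible platform rats were on the higher side when young and on the lower side when aged, with differences of 0.99 ± 0.49 and -0.92 ± 0.37. P2rx4, an ATP-gated channel, and Gtdc1, a glycosyltransferase-like protein, had the same direction of interaction (1.19 ± 0.41 and 1.84 ± 0.67), and Npy and Gfer, a sulfhydryl oxidase of mitochondria, the opposite one (-1.70 ± 0.59 and -1.34 ± 0.48). For Npy and Gfer, young rat 30 was far below the other young rats, at 25.2 and 27.7. Without the arrays of low correlation in both ages the interactions were -1.29 ± 0.61 for Clpb, 0.99 ± 0.60 for Gdi2, -0.27 ± 0.46 for Npy, 0.51 ± 0.28 for P2rx4, -0.43 ± 0.33 for Gfer and 1.43 ± 0.70 for Gtdc1. Each was nearer to 0 than with all arrays.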

How the data were processed

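The authors deposited 1 linear intensity for each probe set on each array, which per the submitters' processing notes was computed in MAS5. The mean of each array without its highest and lowest 2% lay between 499.3 and 500.0, so arrays had been scaled to one level before deposit. Median signals of the 10 arrays were 117.6 to 220.6, highest on arrays 30 and 65. Scaling to one mean can shift genes where a few bright probe sets take more of the signal, and amplification can favour 3′ ends. Neither detection calls nor dates of scanning entered the analysis, and the genome build is not given in the sources used here.

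Of 8799 probe sets, 59 controls and then the 40% of lowest mean signal were left out, which kept 5244, of which 4284 had 1 symbol, for 3233 genes. In all, 7018 probe sets had 1 symbol, 308 several and 1426 non-control ones none; symbols were updated through the gene identifier. Values were tested as log2(signal + 15) with limma 3.58.1 in R 4.3.3 (lmFit, eBayes with trend, two-sided, Benjamini-Hochberg adjusted p under 0.05), with 1 mean per group over the 19 young arrays, or 63 arrays for the age interaction. Intervals are 95% intervals from the same fit. The fit was tested on simulated data with known changes.

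For each gene the probe set of highest mean signal was used. The rule for named genes took the 12 largest rises and falls past the threshold, filled by smallest unadjusted p where fewer passed; up to 3 members of smallest p per list; and 6 genes for the interaction. Activity genes, genes without overlap and leading genes of the fit without low-correlation arrays were added after values were seen. Members, lists and tests were chosen with earlier results of these data known. The alternatives were other pseudocounts, filters, scalings, fits, array sets and leaving out each array. No arrays held identical values.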

Additional observations from a re-analysis of the deposited data

Results flagged for a closer look

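For each named gene and for measures of array quality, the gap between the most extreme rat and its nearest neighbour was divided by the range of its group. This share was above the limit used for 20 of 278 groups of values (7.19%), where independent normal values would give about 5%, or 1 in 20. The genes share their arrays and many were chosen by their values on them, so the count is a description. In the visible platform rats, array 30 was farthest out for Kctd13 (0.909, highest), Gpt (0.852, lowest), Btg1 (0.861, lowest), Gss (0.882, lowest) and Gfer (0.915, lowest). Array 65 was farthest out for Gabrr1 (0.934, highest), Napa (0.837, lowest), Itpka (0.841, lowest), Lipa (0.969, lowest) and Wfdc1 (0.867, highest).

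In the yoked rats, array 59 was farthest out for Nr4a3 (0.673, lowest), Napa (0.674, highest), Htr7 (0.654, lowest), Egr2 (0.654, lowest) and Tpm3 (0.694, highest). Array 60 was farthest out for Bdnf (0.694, highest), Stx1a (0.802, highest) and Wfdc1 (0.659, lowest). Array 58 was farthest out for Mvp (0.682, lowest), and array 23 for Asah1 (0.648, lowest).

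Among 135 named genes, Gdi2 alone had every visible platform rat on opposite sides of the yoked mean between ages. Each of the 4 young visible platform rats lay above the mean of the young yoked rats. Each of the 8 aged visible platform rats lay below that of the aged yoked rats. Gdi2 had been named for its small interaction p, so this is a description. The difference of the differences was 1.91 ± 0.60 log2 units and did not pass limma's adjustment over all probe sets in the interaction test. It was 0.99 ± 0.60 without the arrays of low correlation.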

How the results depend on the processing

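The young comparison was refitted under 18 alternatives and without each of its 10 arrays. Leaving out 1 array gave 0 called probe sets each time, with 36 to 280 at an unadjusted p under 0.05. In 17 of the 18 alternatives limma called 0. The exception, within animal numbers 58 to 65, called 10, but sets visible platform rat 65 alone against 3 yoked rats and assumes that this lone rat varies like the other groups. The age interaction called 0 without each of 26 arrays and under its 12 alternatives except array quality weights, which called 37; the cause was not tested. Of 3727 values of named genes under alternatives, 201 had the opposite sign, in 63 of 135 genes, 38 of them without the arrays of low correlation. The settings of visible 28 and 29 against yoked 22 to 24 and the number range as a block without low-correlation arrays, were added after the data were seen and give the same contrast; the values of single genes in the interaction without low-correlation arrays were also added then. No paired analysis was possible because the labels do not give the rat to which each yoked rat was matched. Nothing in the labels names the ranges of animal numbers as batches. Precision is limited by 4 arrays against 6, of which 2 stood apart.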
